A study of Mus musculus with 10 samples.

Results

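The comparison described here was between type 2 conventional dendritic cells (cDC2) of mice lacking Notch2 in CD11c-expressing cells and cDC2 of WT mice, 24 hours after both had received sheep red blood cells (SRBC). Its members were the 3 arrays labelled Notch2-11cKO SRBC and the 3 labelled WT SRBC, chosen by those labels, of 10 arrays in all. The remaining 4 arrays held untreated cDC2, 2 of each genotype. Every animal injected received 200000000 SRBC intraperitoneally. Splenic tissue was broken down enzymatically (Collagenase B, DNase 1), CD11c+ cells were enriched, and cDC2 were sorted from them. Notch2-11cKO mice carried CD11c-Cre and floxed Notch2 alleles (CD11c-Cre+ Notch2f/f), so deletion was driven in any cell that expresses CD11c and not in cDC2 alone. The age of the mice, their number behind each array and whether WT mice carried Cre are not stated in the labels. The labels do not tie replicates to separate animals, so p-values measure the spread between these arrays, which may be technical.

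Notch2 is a cell-surface receptor. When a Delta-like or Jagged ligand on a neighbouring cell binds it, its intracellular part is cut free and, with the DNA-binding protein RBPJ, switches on target genes such as Hes1 and Dtx1. In the spleen, a subset of cDC2 marked by the adhesion molecule ESAM depends on Notch2, while the ESAM-low subset shares many genes with monocytes. SRBC are a particulate antigen that splenic cDC2 take up, and they elicit T cell help and antibody.

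Expression was read as the deposited array intensity of 19938 genes, on a log2 scale. Differences are Notch2-11cKO minus WT in log2 units with the standard error (SE), n = 3 arrays in each group throughout, and adjusted p-values are those of limma over all genes with a threshold of 0.05. The cells carried the labelled type's markers: on the 6 SRBC arrays Itgax (CD11c) lay between 9.02 and 9.78, Sirpa between 9.51 and 10.56, and Flt3 between 8.56 and 9.79. The level of Zbtb46, a transcription factor of conventional dendritic cells, was 6.56 to 7.19 on the same arrays. For scale, the median probe set of an array had a linear intensity, before log2, between 29.5 and 31.7, which is well below these markers. Replicates correlated at r = 0.971 to 0.990 in WT SRBC and 0.975 to 0.988 in Notch2-11cKO SRBC (Pearson, across genes), and in each group 1 array stood apart from the other two, WT SRBC 1 and Notch2-11cKO SRBC 3. The number of arrays limits the precision.

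After SRBC, 1061 of 19938 genes differed between the genotypes (5.32% of genes tested), 670 higher in Notch2-11cKO (3.36%) and 391 lower (1.96%). Of these, 578 differed at least 2-fold. The median over all genes was -0.02. Rises reached further than falls: 32 genes were at least 8-fold higher and 4 at least 8-fold lower. In 1055 of the 1061 genes every Notch2-11cKO SRBC array lay on one side of every WT SRBC array, which was so for 20.3% of all genes tested. Without both arrays that stood apart, 2364 genes were called, among them 957 of the 1061 in the same direction. Leaving out WT SRBC 2 gave 684 calls and leaving out Notch2-11cKO SRBC 1 gave 649. At an unadjusted p below 0.05, 1814 of the 19938 genes were higher and 1664 lower. List counts given below at that cutoff are to be read against these.

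The steepest rise was in Fn1, which encodes the matrix protein fibronectin. It measured 4.67, 4.79 and 4.81 in WT SRBC and 9.62, 9.57 and 9.97 in Notch2-11cKO SRBC, a difference of 4.96 ± 0.17 (adjusted p = 1.42e-07) or 31.2-fold. The WT arrays sat close together near the median probe set and the Notch2-11cKO arrays far above them. Lpl, lipoprotein lipase, gave 4.46, 4.52 and 4.43 against 8.68, 8.72 and 9.33 (4.44 ± 0.21, adjusted p = 7.29e-07). Ccr2, the chemokine receptor that brings monocytes out of the bone marrow, gave 6.03, 4.79 and 5.52 against 10.06, 9.84 and 9.32 (4.29 ± 0.29, adjusted p = 1.26e-05). In both genes the ranges were far apart, and Ccr2 varied more among the WT arrays than Lpl did. Groups that did not overlap were a condition for the 12 largest rises. The other members of the 12 largest rises were Gda (4.51), a guanine deaminase; Cd226 (4.17), an adhesion receptor; the chemokines Ccl6 (4.12), Cxcl13 (4.03) and Ccl9 (4.0); Fcrls (3.98); Lyz1 (3.75), a lysozyme; Capg (3.71), an actin-capping protein; and Cd84 (3.70), a SLAM family receptor. Gda varied most among them in Notch2-11cKO, at 9.90, 9.45 and 8.07.

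The steepest fall was in Dnase1l3, a secreted DNase of dendritic cells and macrophages. It measured 10.22, 9.93 and 9.78 in WT SRBC and 5.10, 5.43 and 4.98 in Notch2-11cKO SRBC, a difference of -4.81 ± 0.23 (adjusted p = 9e-07). It was among the brighter genes of every WT array and close to the median probe set in every Notch2-11cKO array. Havcr2, which encodes the phosphatidylserine receptor TIM-3, went from 9.50, 10.26 and 9.96 to 7.17, 6.27 and 7.62 (-2.89 ± 0.32, adjusted p = 0.000335). Clec4a4, the inhibitory lectin DCIR2 that marks splenic cDC2, went from 6.33, 7.06 and 6.93 to 4.48, 3.23 and 3.89 (-2.91 ± 0.29, adjusted p = 0.000146). Neither gene's groups overlapped. The other large falls were Arap2 (-3.20), a GTPase-activating protein; Ppargc1a (-3.03), a coactivator of mitochondrial genes; Abcb1a (-3.02), a drug efflux pump; Car2 (-2.85), carbonic anhydrase 2; Klri2 (-2.67), a killer cell lectin-like receptor; Stra6l (-2.65); Adgrl3 (-2.61), an adhesion G protein-coupled receptor; Stat4 (-2.61), the transcription factor activated by IL-12; and Pde3b (-2.49), a cyclic nucleotide phosphodiesterase. Stat4 and Pde3b were less even than the rest, with Notch2-11cKO SRBC 3 at 9.22 and 6.10 against 7.10 and 4.15 on Notch2-11cKO SRBC 1. Without Notch2-11cKO SRBC 2 the call of Pde3b was lost (adjusted p = 0.0533).

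**Figure D1:**
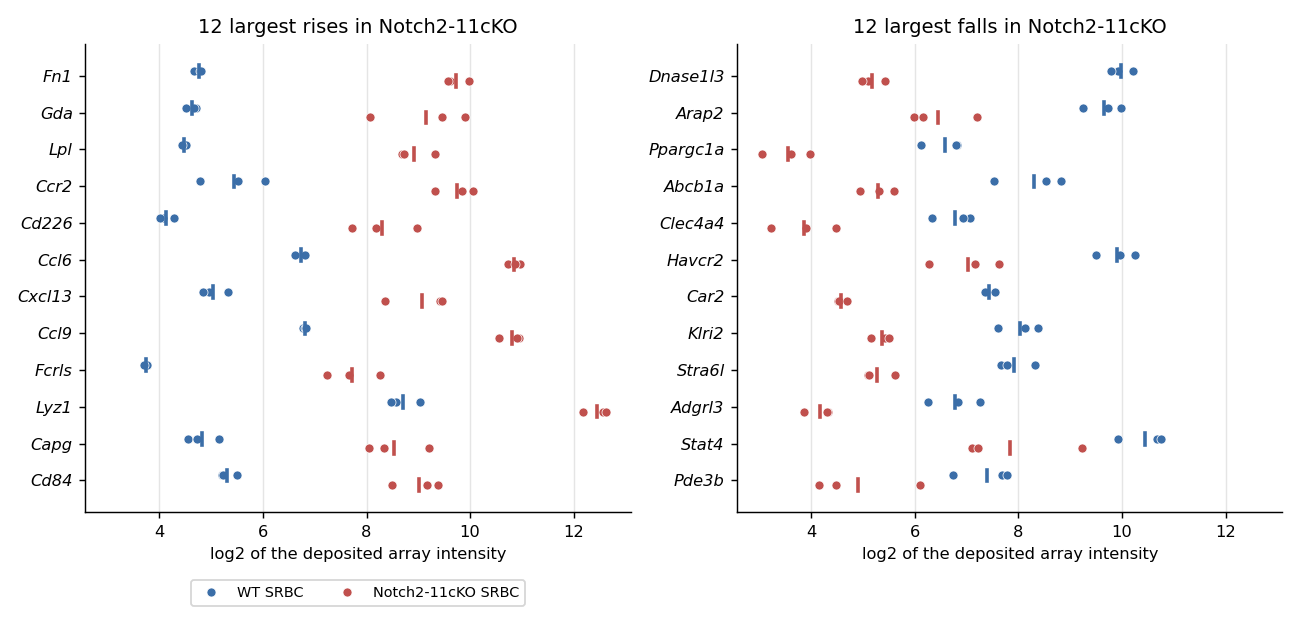
Array values of the 12 genes with the largest rise (left) and the 12 with the largest fall (right) in Notch2-11cKO relative to WT after SRBC; each point is 1 array, each short bar the mean of 3, and the x axis is log2 of the deposited intensity. Genes were taken only where the groups did not overlap, and Stat4 and Pde3b have 1 Notch2-11cKO array nearer to WT than the others.

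Of 29 measured genes of the Notch pathway, limma called none higher (3 at an unadjusted p below 0.05) and 1 lower, with a median of 0.03. That is 3.45% of the list, near the 5.32% called over all genes. Notch2 measured 7.58, 7.09 and 7.09 in WT SRBC and 7.96, 7.64 and 7.23 in Notch2-11cKO SRBC (0.35 ± 0.21, adjusted p = 0.455). The labels do not place its probes relative to the deleted exons, so this level does not check the deletion. Dtx1, a ubiquitin ligase and Notch target, was the member called: 7.15, 6.27 and 6.63 in WT SRBC against 5.62, 5.79 and 5.38 (-1.09 ± 0.27, adjusted p = 0.0403). Its groups did not overlap, but the call was lost without WT SRBC 1, WT SRBC 3, either Notch2-11cKO Untreated array or any Notch2-11cKO SRBC array (adjusted p up to 0.108). Hes1, the repressor that is the standard Notch target, gave 5.50, 5.29 and 5.17 against 4.87, 5.67 and 5.16 (-0.09 ± 0.21, adjusted p = 0.892), and its groups overlapped. Notch1, a related receptor, differed by 0.58 ± 0.17 without passing the threshold (adjusted p = 0.0842).

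To show what the starts of these genes hold, the sequence just before their start sites was read from RefSeq (GRCm38.p6; 15614 of the measured genes matched, with 19177 windows of 300 bases from 250 before to 50 after the start). The RBPJ motif GTGGGAA, or TTCCCAC on the opposite strand, was in 6.13% of all windows, 5.35% of those of genes higher after SRBC and 5.83% of those of genes lower. The motif GAGGAAGT, or ACTTCCTC on the opposite strand, which is bound by the myeloid factor PU.1, was in 2.77% of all windows, 5.77% of those of genes higher and 3.73% of those of genes lower. A gene can have several windows, and both strands were searched. The windows below, each cut to 150 bases (120 before and 30 after the start), show the Notch target called lower, a fallen and a risen gene with the same PU.1 motif at the same place, and 2 risen chemokine or actin genes with the RBPJ motif. Capitals mark the motif.
Dtx1 (lower; chr5:120711640-120711789, minus strand): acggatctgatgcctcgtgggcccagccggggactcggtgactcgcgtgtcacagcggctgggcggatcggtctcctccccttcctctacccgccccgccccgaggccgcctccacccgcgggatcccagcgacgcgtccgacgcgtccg
Havcr2 (lower; chr11:46454811-46454960, plus strand): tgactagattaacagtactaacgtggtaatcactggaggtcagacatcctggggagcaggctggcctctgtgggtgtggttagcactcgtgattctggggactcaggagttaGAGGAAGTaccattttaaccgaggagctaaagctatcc
Slamf9 (higher; chr1:172475240-172475389, plus strand): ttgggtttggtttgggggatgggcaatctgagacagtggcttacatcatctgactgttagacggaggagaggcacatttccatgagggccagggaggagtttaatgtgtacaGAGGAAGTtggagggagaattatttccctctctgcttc
Ccl9 (higher; chr11:83578607-83578756, minus strand): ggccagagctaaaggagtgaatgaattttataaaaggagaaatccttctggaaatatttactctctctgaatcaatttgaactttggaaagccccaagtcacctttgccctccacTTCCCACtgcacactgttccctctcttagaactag
Capg (higher; chr6:72549527-72549676, plus strand): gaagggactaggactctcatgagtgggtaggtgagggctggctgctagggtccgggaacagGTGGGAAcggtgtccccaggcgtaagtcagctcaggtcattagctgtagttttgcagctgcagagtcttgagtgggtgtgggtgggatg

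The window of Dtx1 held neither motif. In Havcr2 and Slamf9 the PU.1 motif began 8 bases before the start, while Havcr2 fell by 2.89 and Slamf9, a SLAM family receptor named here because its window holds this motif, was 3.01 higher (± 0.24, adjusted p = 3.69e-05). Ccl9 held the RBPJ motif on the opposite strand and Capg on the same strand as the gene, and both rose. A match of letters is a description of the sequence and says nothing of binding.

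Genes of the 2 cDC2 subsets moved in opposite directions. The share called was 68.8% of ESAM-high and 84.2% of ESAM-low genes, against 5.32% of all genes. Of 16 measured ESAM-high genes, 11 fell and none rose in limma (none at an unadjusted p below 0.05 either; median -1.05), and of 19 ESAM-low and monocyte-like genes, 16 rose and none fell (1 lower at an unadjusted p below 0.05; median 3.06). These lists were drawn up with earlier results of these data known, so their directions are a description. In sorted bulk RNA, fewer cells of a type and less RNA per cell cannot be told apart. Among ESAM-high genes, Slc12a2, a sodium-potassium-chloride cotransporter, fell by 1.90 ± 0.17 (adjusted p = 6.87e-05), alongside Dnase1l3, Clec4a4, Abcb1a and Adgrl3. Esam itself measured 6.0, 5.37 and 4.61 in WT SRBC and 4.07, 4.36 and 4.08 in Notch2-11cKO SRBC (-1.15 ± 0.27, adjusted p = 0.0286). WT SRBC 3 came near the Notch2-11cKO arrays, and the call of Esam was lost without either WT Untreated array, WT SRBC 2 or any Notch2-11cKO SRBC array (adjusted p up to 0.099). Without Notch2-11cKO SRBC 1, the count of ESAM-high genes that fell was 7. Cd4 gave a difference of -0.56 ± 0.18 that did not pass (adjusted p = 0.113), with no overlap between the groups. Among ESAM-low genes, Lyz2 (2.59 ± 0.16, adjusted p = 7.53e-06) and Csf1r, the receptor for the macrophage growth factor CSF1 (1.71 ± 0.18, adjusted p = 0.000189), rose with Fn1, Lpl, Ccr2 and Lyz1. The summed intensity of the ESAM-low list was 3128 to 3565 in WT SRBC and 18695 to 23859 in Notch2-11cKO SRBC.

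Of 22 measured genes that define conventional dendritic cells, 2 rose and 3 fell (median -0.30), which is 22.7% of the list against 5.32% of all genes. Itgam, the integrin CD11b, measured 6.26, 6.43 and 6.79 in WT SRBC and 8.42, 8.35 and 8.18 in Notch2-11cKO SRBC (1.82 ± 0.17, adjusted p = 0.000101). Zeb2, a transcription factor of the myeloid and cDC2 lineages, rose by 1.48 ± 0.15 (adjusted p = 0.000189). Kit, a growth factor receptor, fell by 1.39 ± 0.20 (adjusted p = 0.00177), and Runx3, a transcription factor, by 1.12 ± 0.20 (adjusted p = 0.00832). The third fall was Ikzf1, named after its value was seen (adjusted p = 0.0498). Its call was lost when any array other than Notch2-11cKO SRBC 1 was left out (adjusted p up to 0.128). Irf4, needed by cDC2, gave 8.06, 8.78 and 8.37 against 7.16, 6.85 and 8.13 (-1.02 ± 0.32, adjusted p = 0.101), with Notch2-11cKO SRBC 3 inside the WT range. Irf8 (0.69, adjusted p = 0.254), Zbtb46 (-0.32, adjusted p = 0.398), Itgax (0.14, adjusted p = 0.798) and Sirpa (0.63, adjusted p = 0.0528) did not pass.

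Markers of cDC1, the other conventional subset, were split. Of 14 measured, 3 rose and 2 fell (median -0.01), which is 35.7% of the list against 5.32% of all genes. Naaa, a lysosomal amidase, rose by 2.24 ± 0.28 (adjusted p = 0.000765) and Cadm1, an adhesion molecule, by 1.08 ± 0.18 (adjusted p = 0.00405). Wdfy4, needed for cross-presentation, fell by 1.41 ± 0.18 (adjusted p = 0.000827), and Cd8a fell by 1.01 ± 0.19 (adjusted p = 0.00847). Cd8a is in the ESAM-high list as well and is among the falls counted there. The remaining rise was Tlr3, a sensor of double-stranded RNA named after its value was seen; its call was lost without WT SRBC 3 or Notch2-11cKO SRBC 2 (adjusted p up to 0.0708). The cDC1-defining receptor genes Xcr1 (-0.75, adjusted p = 0.053) and Clec9a (0.54, adjusted p = 0.573) did not pass.

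Receptors that position dendritic cells in the spleen included both rises and falls. Of 20 measured, 5 rose and 3 fell (median -0.02, or 0.02 after quantile normalization). That is 40% of the list against 5.32% of all genes. Besides Ccr2, the receptor Ccr1 rose from 3.38, 3.76 and 4.20 to 6.99, 6.53 and 6.95 (3.05 ± 0.23, adjusted p = 2.42e-05). Cxcr5, the receptor for the B cell follicle chemokine CXCL13, was lower: 5.63, 5.61 and 6.17 in WT SRBC against 3.87, 4.47 and 4.26 (-1.60 ± 0.19, adjusted p = 0.000475). Every Notch2-11cKO array was below every WT array for Cxcr5 while Cxcl13, its ligand, was 16.3-fold higher. Ccr6, the receptor for CCL20, was also lower, at 4.70, 4.90 and 5.0 against 6.34, 6.21 and 6.69 in WT SRBC (-1.55 ± 0.15, adjusted p = 0.000141). The other called members, named after their values were seen, were Cx3cr1 (2.09), Cmklr1 (1.64) and the oxysterol hydroxylase Cyp7b1 (0.97) on the higher side and P2ry10 (-0.85) on the lower. The call of P2ry10 was lost without WT SRBC 2, WT SRBC 3, Notch2-11cKO SRBC 1 or Notch2-11cKO SRBC 2 (adjusted p up to 0.0908). Gpr183, the oxysterol receptor EBI2 that holds cDC2 in bridging channels, gave 10.02, 9.91 and 9.76 against 9.37, 9.51 and 9.18 (-0.54 ± 0.16, adjusted p = 0.0752). Ccr7, which leads mature dendritic cells into the T cell zone, gave 11.90, 11.34 and 11.05 against 11.17, 10.65 and 10.89 (-0.53 ± 0.22, adjusted p = 0.225). Gpr183 had no overlap and Ccr7 overlapped; neither passed the threshold.

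Most measured chemokine genes rose. The share called was 58.3%, against 5.32% of all genes. Of 24 measured, 14 rose and none fell in limma (1 lower at an unadjusted p below 0.05), with a median of 1.49. Ccl17, a ligand of CCR4 on T cells, measured 5.71, 5.87 and 5.89 in WT SRBC and 9.68, 9.78 and 9.0 in Notch2-11cKO SRBC (3.66 ± 0.31, adjusted p = 5.04e-05). Ccl22, the second CCR4 ligand, gave 8.64, 8.41 and 8.42 against 10.54, 10.02 and 11.05 (2.04 ± 0.28, adjusted p = 0.00127). Both were well above WT on every Notch2-11cKO array. Cxcl9, a CXCR3 ligand induced by interferon-gamma, rose by 2.00 ± 0.21 (adjusted p = 0.000252), and Ccl6, Ccl9 and Cxcl13 were among the 12 largest rises of all genes. The count was 14 whichever single array was left out, and 15 without both arrays that stood apart.

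Among costimulatory and maturation genes, most of those called were lower. The share called was 32.3%, against 5.32% of all genes. Of 31 measured, 7 fell and 3 rose (median -0.10), and the rises were Ccl17 and Ccl22, which are also in the chemokine list, and Tnfsf9, the 4-1BB ligand (1.07 ± 0.24, adjusted p = 0.0246). Cd86, a ligand of CD28 on T cells, measured 10.98, 11.19 and 11.08 in WT SRBC and 9.50, 9.50 and 10.44 in Notch2-11cKO SRBC (-1.27 ± 0.24, adjusted p = 0.0101). Cd80, the second CD28 ligand, gave 10.55, 10.55 and 10.27 against 9.87, 9.53 and 9.84 (-0.71 ± 0.16, adjusted p = 0.0217). Neither gene's groups overlapped, and the Cd86 value of Notch2-11cKO SRBC 3 was the nearest to WT. Ly75, the endocytic receptor DEC-205, gave 9.63, 8.41 and 8.79 against 7.16, 7.37 and 7.91 (-1.47 ± 0.30, adjusted p = 0.0167). Tnfsf9 was named after its value was seen and lost its call without WT SRBC 2, WT SRBC 3, Notch2-11cKO SRBC 1 or Notch2-11cKO SRBC 3 (adjusted p up to 0.0947). The call of Cd80 was lost without WT SRBC 2 or Notch2-11cKO SRBC 2 (adjusted p up to 0.0884) and that of Ly75 without Notch2-11cKO SRBC 1 or 2 (adjusted p up to 0.0743). The number of falls in the list was 2 without Notch2-11cKO SRBC 1 and 1 without Notch2-11cKO SRBC 2, and the number of rises was 5 without WT SRBC 1. Cd40 (0.79, adjusted p = 0.213), Icosl (0.10, adjusted p = 0.945) and Tnfsf4, the OX40 ligand (0.07, adjusted p = 0.963), did not pass.

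Among 23 measured cytokine genes 3 rose and none fell in limma, which is 13% of the list against 5.32% of all genes. At an unadjusted p below 0.05, 8 rose and 0 fell (median 0.43). Il6 measured 6.13, 6.32 and 6.99 in WT SRBC and 8.00, 7.96 and 9.67 in Notch2-11cKO SRBC (2.06 ± 0.41, adjusted p = 0.0129). Osm, oncostatin M, a cytokine of the IL-6 family, gave 5.20, 5.43 and 5.98 against 6.91, 6.90 and 6.71 (1.30 ± 0.23, adjusted p = 0.00617). No WT array reached the Notch2-11cKO range for either gene, and Il6 was highest on Notch2-11cKO SRBC 3. Without WT SRBC 2 the call of Il6 was lost (adjusted p = 0.0526) and the list's count was 1. Il18 was called at an adjusted p of 0.0464, and lost its call without any WT SRBC array, either Notch2-11cKO Untreated array, Notch2-11cKO SRBC 1 or Notch2-11cKO SRBC 2 (adjusted p up to 0.147). Il12b, a subunit of IL-12 and IL-23, gave 10.56, 8.58 and 9.01 against 8.26, 8.34 and 8.94 (-0.87 ± 0.46, adjusted p = 0.371), with WT SRBC 1 far above the other WT arrays. Array Notch2-11cKO SRBC 3 was also high in genes that did not pass: Il10 gave 6.13, 5.25 and 8.89 and Ifnb1 4.97, 4.27 and 8.19 in Notch2-11cKO SRBC. These genes were named after their values were seen.

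Endocytic lectins and scavenger receptors were the list with the most rises. Of 30 measured, 19 rose and 2 fell (median 1.44), which is 70% of the list against 5.32% of all genes. Clec12a, Clec10a, Mgl2, Mrc1, Cd209a and Cd36, all called higher, are in the ESAM-low list as well. Clec4a4, 1 of the 2 falls, is in the ESAM-high list. These calls are therefore not separate from those of the subset lists. Mgl2 and Clec10a, galactose-binding lectins of the CD301 family, rose by 3.51 ± 0.27 (adjusted p = 2.42e-05) and 3.35 ± 0.22 (adjusted p = 1.21e-05). Clec4a3, a relative of Clec4a4 in the same gene cluster, measured 6.67, 6.68 and 6.97 in WT SRBC and 10.29, 10.21 and 9.93 in Notch2-11cKO SRBC (3.36 ± 0.25, adjusted p = 2.42e-05). Clec4a2, a further relative, rose by 2.13 ± 0.15 (adjusted p = 1.98e-05). So within the Clec4a group these members were higher while Clec4a4 was lower, with no overlap in any of them. These relatives are similar in sequence, and how far their probes cross-hybridise was not tested. The second fall was Ly75, given above; without Notch2-11cKO SRBC 1 or 2 only 1 fall was called. Fc receptor genes followed: of 10 measured 4 rose and none fell in limma, which is 40% of the list against 5.32% of all genes. At an unadjusted p below 0.05, 6 rose and 0 fell (median 0.55). Fcgr3, an activating receptor for IgG, measured 4.88, 5.49 and 5.58 against 8.86, 8.42 and 8.93 (3.42 ± 0.23, adjusted p = 1.39e-05), and the inhibitory receptor Fcgr2b rose by 2.64 ± 0.25 (adjusted p = 0.000104). Fcer1g, the signalling chain of activating receptors such as Fcgr3, rose by 0.84 ± 0.13 (adjusted p = 0.00269). Fcgr3 is in the ESAM-low list as well. Fcgr4 was called at an adjusted p of 0.0272 and lost its call without WT SRBC 1, WT SRBC 2, Notch2-11cKO SRBC 1 or Notch2-11cKO SRBC 2 (adjusted p up to 0.109).

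Genes for clearing dying and damaged cells also differed. Of 21 measured engulfment genes, 7 rose and 3 fell (median 0.10), which is 47.6% of the list against 5.32% of all genes. C1qa, a chain of the complement component C1q, gave 5.68, 5.68 and 5.83 against 7.80, 7.25 and 7.51 (1.79 ± 0.17, adjusted p = 0.0001). The receptor kinase Axl rose by 2.10 ± 0.25 (adjusted p = 0.000509) and the integrin subunit Itgb5 by 1.62 ± 0.23 (adjusted p = 0.00185), while Havcr2 fell. The other falls were Cd300lf, a receptor for phosphatidylserine (-1.42), and Elmo1, which links such receptors to actin (-0.85), both named after their values were seen. Cd300lf lost its call without 3 of the arrays (adjusted p up to 0.0857) and Elmo1 without 2 (adjusted p up to 0.0766), and without WT SRBC 2 Havcr2 was the remaining fall. Of 29 lysosomal genes, 11 rose and 1 fell (median 0.56), which is 41.4% of that list. Ctsd, the protease cathepsin D, measured 7.49, 7.74 and 7.70 in WT SRBC and 10.48, 10.01 and 10.73 in Notch2-11cKO SRBC (2.76 ± 0.21, adjusted p = 2.42e-05). Hexa (1.85 ± 0.14), a hexosaminidase, Psap (2.13 ± 0.24), the precursor of the saposins, and Npc2 (1.65 ± 0.24), a cholesterol carrier, rose too, with adjusted p between 2.84e-05 and 0.00184. The fall was Gla, alpha-galactosidase A, named after its value was seen (-0.92 ± 0.17, adjusted p = 0.00909). Without Notch2-11cKO SRBC 1, 7 lysosomal genes rose.

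SRBC bring heme and iron into the cells that ingest them. Of 24 measured heme and iron genes, 8 rose and 1 fell (median 0.60), which is 37.5% of the list against 5.32% of all genes. The genotypes differed in a like way without SRBC, with 7 higher and 2 lower in untreated mice (median 0.65). No member passed the interaction test between the 2 states. Hmox1, which opens the heme ring, measured 7.03, 8.80 and 8.13 in WT SRBC and 10.17, 9.84 and 9.67 in Notch2-11cKO SRBC (1.91 ± 0.35, adjusted p = 0.00837). Blvrb, a biliverdin reductase, rose by 1.64 ± 0.22 (adjusted p = 0.00131) and Cd163, the receptor for haptoglobin and hemoglobin, by 1.08 ± 0.20 (adjusted p = 0.00912). Flvcr1, a heme exporter, was lower on every Notch2-11cKO array, at 7.91, 8.24 and 7.98 against 9.11, 9.74 and 9.43 (-1.38 ± 0.19, adjusted p = 0.00152). The number of rises in the list was 4 without either WT Untreated array and 5 without WT SRBC 3 or Notch2-11cKO SRBC 1. Of 20 glutathione and NRF2 genes, 6 rose and none fell in limma (8 and 0 at an unadjusted p below 0.05; median 0.51), led by the transferase Gstm1 (3.29 ± 0.39, adjusted p = 0.000503) and the reductase Gsr (1.06 ± 0.16, adjusted p = 0.00199). The share called was 30%, against 5.32% of all genes, and without WT SRBC 2 the count was 3. Of 12 LXR targets and efflux genes, 6 rose and none fell (7 and 0 at an unadjusted p below 0.05; median 0.84), among them Apoe (1.53 ± 0.23, adjusted p = 0.00265), Plin2, which coats lipid droplets (1.86 ± 0.30, adjusted p = 0.00347), and Smpdl3a (1.5 ± 0.19, adjusted p = 0.00069). The share called was 50% of the LXR and efflux genes. Of 17 cholesterol synthesis genes, 2 rose and 1 fell (median 0.35), which is 17.6% of the list against 5.32% of all genes. The fall was Pmvk, phosphomevalonate kinase (-1.30 ± 0.16, adjusted p = 0.000709). The rises, Idi1 (0.87) and Fdft1 (0.95), were both lost without Notch2-11cKO SRBC 1 or 2 (adjusted p up to 0.0852 and 0.0705), and that of Fdft1 also without WT SRBC 3.

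**Figure D2:**
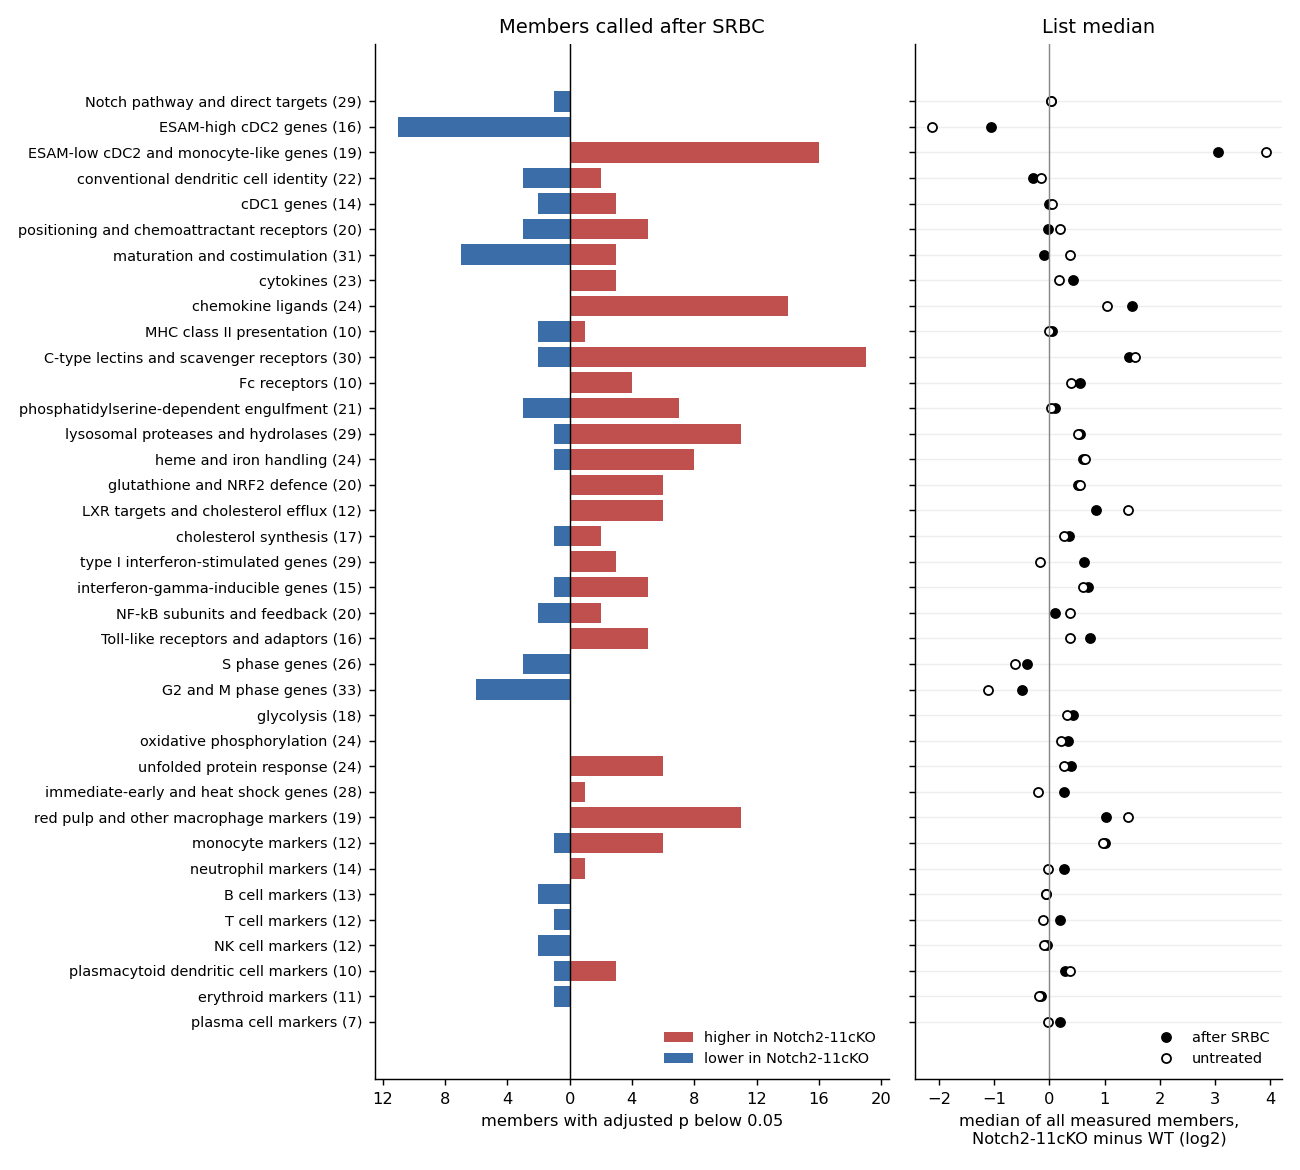
Members of each gene list (number measured in brackets) called higher or lower in Notch2-11cKO after SRBC (left), and the median difference over all measured members after SRBC and in untreated mice, in log2 units (right). C-type lectins and scavenger receptors have 19 members higher, ESAM-high genes 11 lower, and the glycolysis, oxidative phosphorylation and plasma cell lists none.

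Genes of sensing and signalling included rises and falls. The share called was 31.2% of Toll-like receptor, 20% of NF-kB, 40% of interferon-gamma and 10.3% of type I interferon genes. Over all genes it was 5.32%. Of 16 Toll-like receptor genes and adaptors, 5 rose and none fell in limma (11 and 1 at an unadjusted p below 0.05; median 0.74), including Tlr8 (2.88 ± 0.31, adjusted p = 0.000247), Tlr2 (1.99 ± 0.33, adjusted p = 0.00411), the inhibitory kinase Irak3 (1.75 ± 0.23, adjusted p = 0.00111) and the co-receptor Cd14 (2.90 ± 0.54, adjusted p = 0.00919). The remaining rise was Tlr3, given above. In the NF-kB list of 20 genes, 2 rose and 2 fell (median 0.10). Tnip3, a feedback inhibitor, had a mean of 7.05 ± 0.24 in WT SRBC and 9.39 ± 0.54 in Notch2-11cKO SRBC (SD, n = 3 arrays each; difference 2.34 ± 0.27, limma adjusted p = 0.000422), and the deubiquitinase Cyld gave 9.93, 10.42 and 10.19 against 8.88, 8.63 and 8.84 (-1.39 ± 0.16, adjusted p = 0.000503). Both inhibit NF-kB signalling, and they moved in opposite directions with no overlap. The other called members, Nfkbiz and Traf1, kept their calls under few omissions: Nfkbiz lost its call without any array but WT SRBC 1 (adjusted p up to 0.151), and Traf1 without any array but WT SRBC 1 and Notch2-11cKO SRBC 3 (adjusted p up to 0.127). Of 15 genes induced by interferon-gamma, 5 rose and 1 fell (median 0.70), with the GTPases Gbp3 (2.10 ± 0.25, adjusted p = 0.000498) and Gbp7 (1.54 ± 0.17, adjusted p = 0.000335) beside Cxcl9. The other rises were Irf1 (0.93) and, named after its value was seen, Irgm1 (0.90), and the fall was Cd274, the gene of PD-L1 (-0.89), likewise named. Without Notch2-11cKO SRBC 1 the number of rises was 3; Irf1 was also lost without WT SRBC 2 or 3 (adjusted p up to 0.0718), Irgm1 without Notch2-11cKO SRBC 2 (up to 0.0874), and Cd274 without 6 arrays (up to 0.11). Of 29 genes stimulated by type I interferon, 3 rose and none fell in limma (13 and 0 at an unadjusted p below 0.05; median 0.63). Bst2, tetherin, rose by 1.48 ± 0.23 (adjusted p = 0.00299), and the others were Cmpk2 (0.63) and Siglec1 (0.60). Cmpk2 lost its call without Notch2-11cKO SRBC 1 (adjusted p = 0.0552) and Siglec1 without any array but the Notch2-11cKO Untreated arrays and Notch2-11cKO SRBC 3 (adjusted p up to 0.159). The count was 1 without Notch2-11cKO SRBC 1 and 5 without Notch2-11cKO SRBC 3. Notch2-11cKO SRBC 3 was far from its group in Mx2, named after its values were seen, at 7.63 against 4.50 and 4.17.

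Of 10 measured MHC class II genes, 1 rose and 2 fell (median 0.04, or -0.06 after quantile normalization). That is 30% of the list against 5.32% of all genes. H2-DMa, a chain of the chaperone that loads peptide onto class II, measured 9.02, 8.49 and 8.71 in WT SRBC and 10.35, 10.12 and 9.93 in Notch2-11cKO SRBC (1.39 ± 0.17, adjusted p = 0.000718). H2-Oa (-0.74 ± 0.19, adjusted p = 0.0417) and H2-Ob (-1.08 ± 0.25, adjusted p = 0.0307), which form an inhibitor of that chaperone, were called lower. H2-Oa lost its call without any array but WT SRBC 1 and Notch2-11cKO SRBC 2, and H2-Ob without any but WT SRBC 1 and Notch2-11cKO SRBC 3 (adjusted p up to 0.146 and 0.121). The structural gene H2-Aa lay between 11.63 and 12.12 on all 6 arrays (-0.01 ± 0.13, adjusted p = 0.991).

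Proliferation genes were lower where they were called. The share called was 18.2% of G2 and M phase and 11.5% of S phase genes, against 5.32% of all genes. Of 33 G2 and M phase genes, 6 fell and none rose in limma (15 and 1 at an unadjusted p below 0.05; median -0.50). Of 26 S phase genes 3 fell, Rrm2 (-0.95), Dut (-0.80) and Mcm4 (-0.77), and none rose (13 and 0 at an unadjusted p below 0.05; median -0.41). Top2a, topoisomerase II alpha, measured 8.30, 8.04 and 8.34 in WT SRBC and 7.05, 7.03 and 6.89 in Notch2-11cKO SRBC (-1.24 ± 0.24, adjusted p = 0.0111). The spindle checkpoint kinase Bub1 fell by 1.20 ± 0.18 (adjusted p = 0.00216). Top2a and Bub1 had no overlap between groups and kept their calls whichever array was left out. The counts did not hold: the number of G2 and M falls was 2 without either WT Untreated array or WT SRBC 3, 3 without WT SRBC 1 or any Notch2-11cKO SRBC array, and 10 without either Notch2-11cKO Untreated array. The number of S phase falls was 0 without WT SRBC 2 and 1 without either WT Untreated array, WT SRBC 3 or any Notch2-11cKO SRBC array. Without Notch2-11cKO SRBC 1 or 2, Rrm2, Dut and Mcm4 all lost their calls (adjusted p up to 0.137) and the 1 fall was another gene. Glycolysis (18 genes, median 0.43) and oxidative phosphorylation (24 genes, median 0.33) had no call in either direction in limma; at an unadjusted p below 0.05 they had 8 and 6 genes higher and none lower. Of 24 genes of the unfolded protein response, 6 rose and none fell (10 and 0 at an unadjusted p below 0.05; median 0.39), led by the disulfide isomerase Pdia4 (1.54 ± 0.21, adjusted p = 0.00116). That is 25% of the list, and the count was 1 without WT SRBC 2, WT SRBC 3 or Notch2-11cKO SRBC 1.

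Immediate-early and heat shock genes, which respond to handling as well as to stimulation, gave 1 rise and no fall among 28 in limma. That is 3.57% of the list, below the 5.32% called over all genes. At an unadjusted p below 0.05, 5 rose and 0 fell (median 0.26), while 1814 rose and 1664 fell among all 19938 genes. Hspa1a, the inducible HSP70, measured 7.13, 6.62 and 6.98 in WT SRBC and 9.58, 9.76 and 7.39 in Notch2-11cKO SRBC (2.00 ± 0.48, adjusted p = 0.0355). Notch2-11cKO SRBC 3 was near WT while the other arrays of its group were well above. The call was lost without any array but WT SRBC 1 and Notch2-11cKO SRBC 3 (adjusted p up to 0.137). The list's count was 3 without Notch2-11cKO SRBC 3 and 2 without WT SRBC 1. Whether this difference had a part in the others was not tested.

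Markers of other cells that a CD11c enrichment could hold were given their own lists. The share called was 57.9% of macrophage and 58.3% of monocyte markers, against 5.32% of all genes. Of 19 macrophage markers, 11 rose and none fell in limma (12 and 0 at an unadjusted p below 0.05; median 1.02), and their summed intensity was 2478 to 3900 in WT SRBC and 6142 to 6835 in Notch2-11cKO SRBC. The rises included C1qa, Hmox1, Csf1r and C1qb (1.74 ± 0.30, adjusted p = 0.00605), while the macrophage genes Spic (-0.19, adjusted p = 0.864) and Adgre1 (-0.26, adjusted p = 0.744) did not pass. Spic lay between 7.86 and 9.25 on all 6 arrays. The number of rises was 5 without Notch2-11cKO SRBC 1 and 7 without WT SRBC 2 or Notch2-11cKO SRBC 2. Of 12 monocyte markers, 6 rose and 1 fell (median 1.00), and their summed intensity was 3903 to 5298 against 9165 to 11568. F13a1, a coagulation factor of monocytes, rose by 1.90 ± 0.29 (adjusted p = 0.0026), and the fall was Plac8 (-1.98 ± 0.37, adjusted p = 0.00948). Several of these genes are in the ESAM-low, engulfment and heme lists as well, and the part of other cells in those results was not tested.

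Lymphoid, granulocyte and erythroid marker lists each gave 1 or 2 calls. The share called was 15.4% of B cell, 8.33% of T cell, 16.7% of NK cell, 7.14% of neutrophil and 9.09% of erythroid markers. It was 40% of plasmacytoid dendritic cell markers, given below, and 5.32% of all genes tested. Summed intensities were 443 to 471 in WT SRBC and 333 to 386 in Notch2-11cKO SRBC for 13 B cell markers, 849 to 933 against 937 to 1130 for 12 T cell markers, and 1806 to 1980 against 1276 to 1438 for 12 NK cell markers. They were 419 to 540 against 541 to 1198 for 14 neutrophil markers and 476 to 517 against 289 to 296 for 11 erythroid markers. The defining genes Cd79a (2.76 to 3.29), Cd3g (3.18 to 3.88), Ncr1 (3.00 to 3.51) and Ly6g (2.62 to 3.19) were low on all 6 arrays. In these lists 2 B cell, 1 T cell, 2 NK cell and 1 erythroid marker fell and 1 neutrophil marker, S100a8, rose. The B cell marker Cd22, an inhibitory lectin, fell by 1.26 ± 0.17 (adjusted p = 0.00116), and the erythroid marker was Car2. The T cell marker Cd5 and the NK cell marker Klrd1 lost their calls without WT SRBC 2, WT SRBC 3 or Notch2-11cKO SRBC 1 (adjusted p up to 0.0814 and 0.0752). The second B cell marker, Ms4a1, lost its call without any array but Notch2-11cKO SRBC 2 (adjusted p up to 0.161), and S100a8 without either WT Untreated array, WT SRBC 1 or 2, or Notch2-11cKO SRBC 1 or 2 (adjusted p up to 0.17). The second NK cell marker, Klre1, lost it without either WT Untreated array, WT SRBC 2 or any Notch2-11cKO SRBC array (adjusted p up to 0.0876). The value of Klre1, -1.03, moved to -0.68 without WT SRBC 3. Of 10 plasmacytoid dendritic cell markers, 3 rose and 1 fell (median 0.28, summed intensity 753 to 1071 against 1072 to 1644); Bst2 and Cox6a2 (1.66 ± 0.24, adjusted p = 0.00164) were among the rises with Tcf4 (0.74), the fall was Lair1 (-0.99), and the defining gene Siglech lay between 4.74 and 5.26. Tcf4 lost its call without either WT Untreated array, WT SRBC 2 or 3, or Notch2-11cKO SRBC 1 or 2 (adjusted p up to 0.098), and Lair1 without WT SRBC 3 (adjusted p = 0.066). None of 7 plasma cell markers passed in limma (3 at an unadjusted p below 0.05; median 0.19). As for the animals, Xist was low (3.21 to 3.83) and Eif2s3y was high (7.94 to 8.90) on all 6 arrays, so arrays of both groups carried the male pattern. The Y-linked gene Uty was lower in Notch2-11cKO SRBC (-1.22 ± 0.18, adjusted p = 0.00208).

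**Figure D3:**
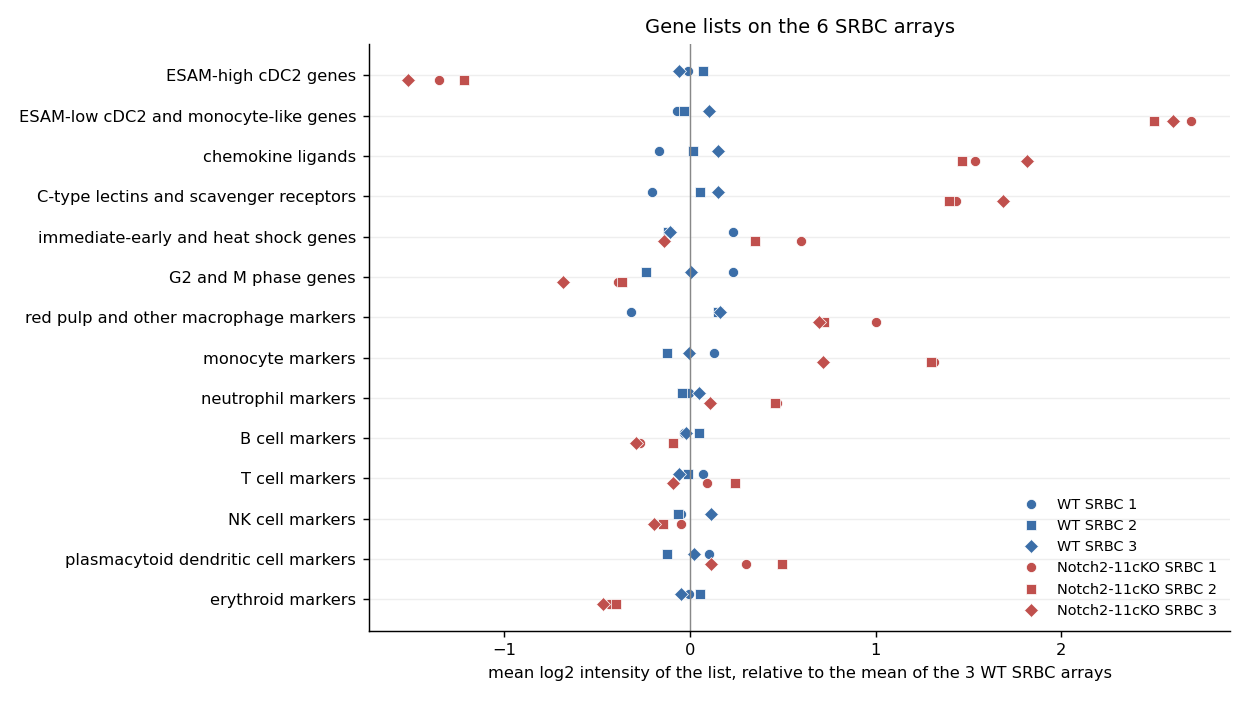
Mean log2 intensity of 14 gene lists on each of the 6 SRBC arrays, relative to the mean of the 3 WT SRBC arrays; colour gives the genotype and symbol the replicate. The genotypes overlap in the immediate-early and heat shock, T cell and NK cell lists. In the other lists drawn they do not, in some by a narrow margin. Notch2-11cKO SRBC 3 is the lowest of its group for every list drawn except the ESAM-low, chemokine and lectin lists.

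Leaving out both arrays that stood apart moved the medians and counts of many lists. The median went from 0.51 to 0.02 for glutathione and NRF2 genes, from 0.33 to 0.02 for oxidative phosphorylation, from 0.63 to 0.24 for type I interferon genes and from 0.60 to 0.34 for heme and iron genes. It went from 0.43 to 0.20 for cytokine genes, from -0.50 to -0.25 for G2 and M phase genes, from -0.10 to -0.29 for maturation genes and from 0.26 to 0.42 for immediate-early and heat shock genes. The medians of cDC1 and positioning genes changed sign, to 0.19 and 0.10. Calls over all 19938 genes also went up without these arrays, from 1061 to 2364 (1273 higher and 1091 lower). The list counts are to be read against that general increase. G2 and M phase genes then had 4 falls and 1 rise, and S phase genes 2 falls, while many other counts went up. Cytokine genes then had 7 rises, maturation genes 6 rises and 9 falls, Toll-like receptor genes 9, cholesterol synthesis genes 6, type I interferon genes 7 with 3 falls, and immediate-early and heat shock genes 10. Conventional dendritic cell genes had 5 rises and 5 falls, NF-kB genes 5 and 4, and Notch pathway genes 4 and 0. ESAM-high genes had 10 falls and 2 rises, and ESAM-low genes 17 rises.

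The same genotype comparison in untreated mice, which shares no array with the one after SRBC, gave 1019 calls (5.11% of genes tested). Across all genes the genotype differences in the 2 states correlated at Pearson r = 0.72 and Spearman rho = 0.44, as a description, since genes are not independent. There were 556 genes called in both with the same direction, 52.4% of the calls after SRBC and 54.6% of the untreated calls. Of the genes called after SRBC, 998 (94.1%) had their untreated difference on the same side, against 63.3% over all genes. Of the 556, the difference was smaller after SRBC in 437, with a median size of 1.26 after SRBC and 1.60 untreated. The median SE was larger untreated (0.19) than after SRBC (0.15), so an untreated call took a larger difference. Taking genes called in both thus favours larger untreated sizes, and these sizes do not tell whether SRBC reduced the genotype difference. Dnase1l3 differed by -5.92 untreated and -4.81 after SRBC, Fn1 by 5.92 and 4.96, and Clec4a4 by -4.09 and -2.91, none with an interaction that passed (adjusted p = 0.591, 0.453 and 0.687). Only Prr5l, named after its value was seen, was called in opposite directions: 1.15 (adjusted p = 0.0071) untreated and -0.77 (adjusted p = 0.0218) after SRBC (interaction -1.93, adjusted p = 0.0617).

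**Figure D4:**
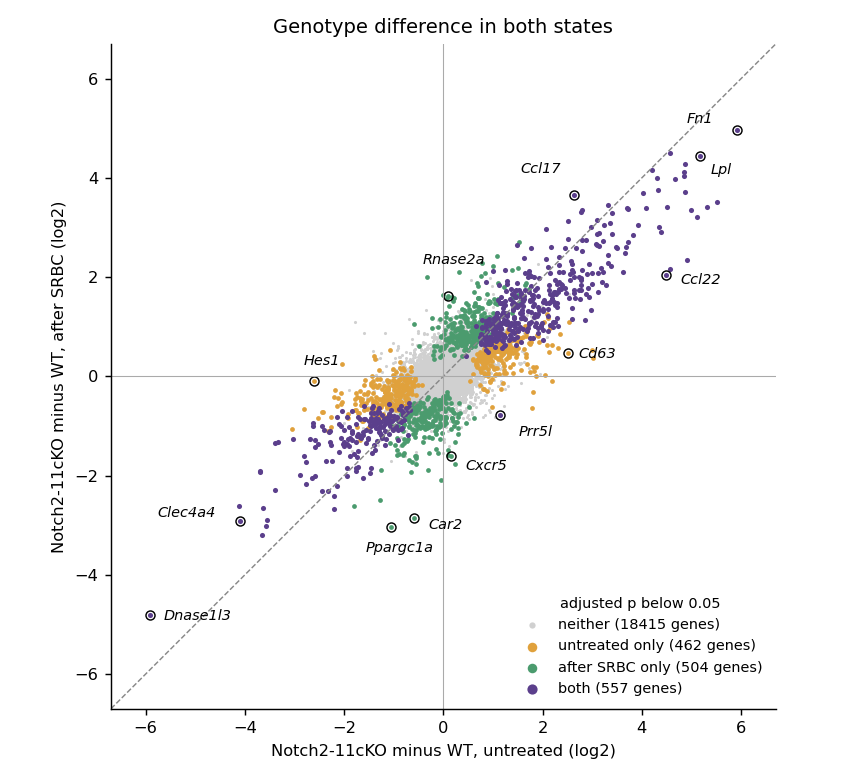
Difference between Notch2-11cKO and WT after SRBC (y) against that in untreated mice (x) for 19938 genes, in log2 units; colours give in which state limma's adjusted p was below 0.05, and the dashed line marks equal differences. Of the genes called after SRBC, 998 of 1061 have their untreated difference on the same side of 0. Car2 lies at -2.85 after SRBC against -0.59 untreated, and Hes1 at -0.09 against -2.60.

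Whether the genotype difference after SRBC differed from that in untreated mice was tested as an interaction, and 4 genes passed (0.0201% of genes tested; 1289 had an unadjusted p below 0.05). Untreated WT arrays gave 5.28 and 5.31 for Car2 and untreated Notch2-11cKO arrays 4.57 and 4.84; after SRBC it was 7.38, 7.35 and 7.55 in WT SRBC and 4.52, 4.53 and 4.69 in Notch2-11cKO SRBC. Its 3 WT SRBC arrays lay above all the others (interaction -2.26, adjusted p = 0.00526). Rnase2a, a ribonuclease of the eosinophil-associated family, was 4.26, 4.11 and 4.17 in Notch2-11cKO SRBC and between 2.30 and 2.65 on all the other arrays (interaction 1.53, adjusted p = 0.0104). It is 1 of a family of close copies whose signals the probes may not separate, and it was too dim to be tested among genes above the median level. Cd63, a tetraspanin of late endosomes, was 8.49 and 8.56 in WT Untreated, 11.15 and 10.93 in Notch2-11cKO Untreated, 11.10, 11.09 and 11.23 in WT SRBC and 11.53, 11.60 and 11.73 in Notch2-11cKO SRBC. Its genotype difference was 2.51 untreated and 0.48 after SRBC (interaction -2.03, adjusted p = 0.00526). Hes1 measured 7.67 and 7.14 without SRBC in WT and 4.78 and 4.83 in Notch2-11cKO, so that its untreated difference of -2.60 was -0.09 after SRBC, when the WT arrays lay between 5.17 and 5.50 (interaction 2.51, adjusted p = 0.0486). None of the 4 passed without WT Untreated 1 (adjusted p = 0.103 for Car2 and Cd63, 0.107 for Rnase2a and 0.441 for Hes1). Cd63 and Rnase2a were also lost without Notch2-11cKO Untreated 1 (adjusted p = 0.0841 for both), and Rnase2a without Notch2-11cKO Untreated 2 (adjusted p = 0.108). Hes1 was lost without any 1 array other than WT SRBC 1 or Notch2-11cKO SRBC 1. It was also lost with all probe sets by ID (adjusted p = 0.0926), among genes above the median level (0.0505), after quantile normalization (0.0641) and with the replicate block (0.0745). Without both arrays that stood apart, 604 genes passed.

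Cxcr5, Ppargc1a, Ccl22 and Ccl17 had genotype differences of unlike size in the 2 states, but their interactions did not pass. Without SRBC, Cxcr5 measured 2.94 and 2.81 in WT and 3.21 and 2.85 in Notch2-11cKO, so the genotype difference was 0.15 untreated and -1.60 after SRBC (interaction -1.75, adjusted p = 0.146). Both genotypes were higher after SRBC than untreated on every array, and WT SRBC was the highest. Ppargc1a differed by -1.05 untreated and -3.03 after SRBC (interaction -1.98, adjusted p = 0.146). Ccl22 differed by 4.49 untreated and 2.04 after SRBC (interaction -2.44, adjusted p = 0.146), and Ccl17 by 2.64 and 3.66 (interaction 1.02, adjusted p = 0.784). Dtx1 differed by -2.41 untreated and -1.09 after SRBC (interaction 1.33, adjusted p = 0.566).

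**Figure D5:**
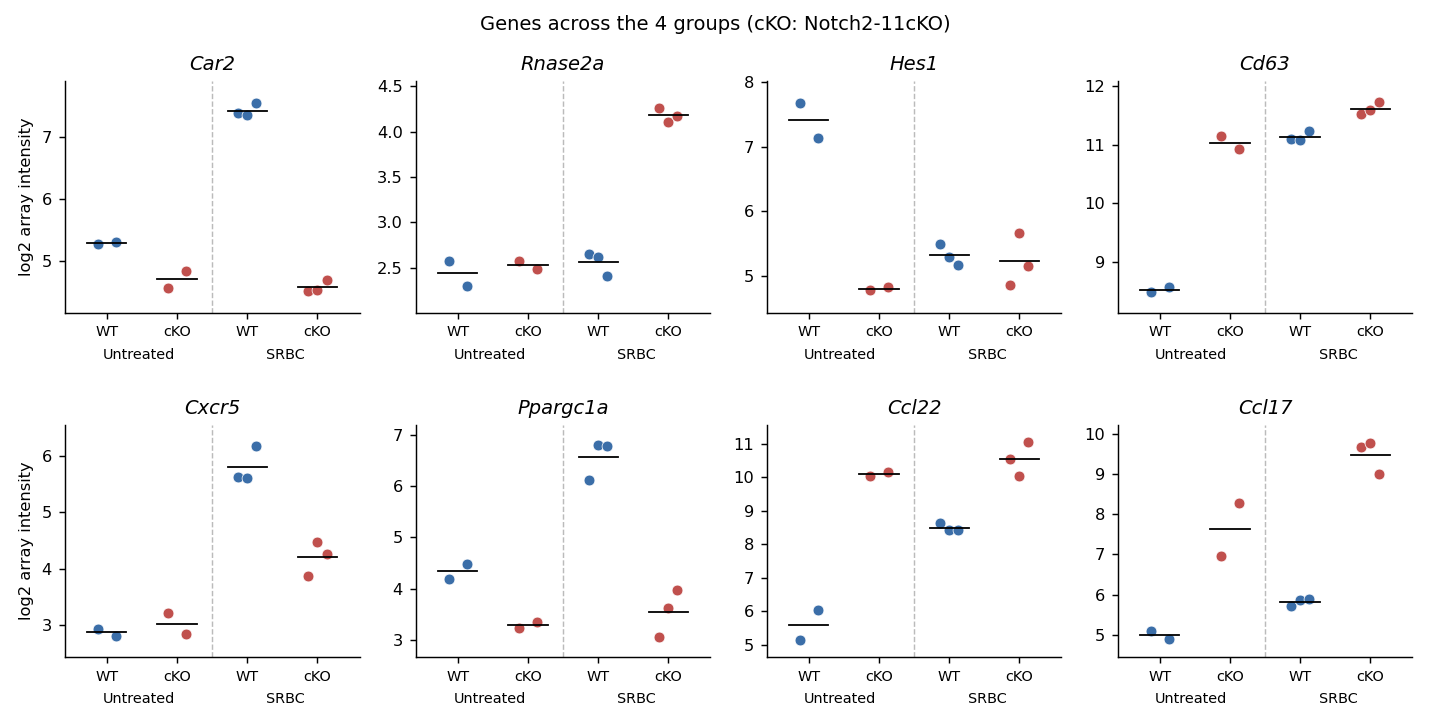
Array values of 8 genes in the 4 groups, as log2 of the deposited intensity; each point is 1 array and each bar the group mean, with 2 arrays per untreated group and 3 per SRBC group. The WT SRBC arrays are the highest for Car2 and the Notch2-11cKO SRBC arrays for Rnase2a, while the WT Untreated arrays are the highest for Hes1 and the lowest for Cd63.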

How the data were processed

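The 10 arrays (3 WT SRBC, 3 Notch2-11cKO SRBC, 2 WT Untreated, 2 Notch2-11cKO Untreated) were labelled with biotin after amplification with the Ambion WT Expression kit, per the labels. The authors deposited a linear intensity per probe set and array; the methods of background correction, normalization and summarising are not given in the sources used here, and a difference in those steps could change low values most. All deposited intensities were present and above 0, and their log2 was used with no pseudocount. Of 28853 probe sets, 21789 had 1 gene symbol, 1621 several and 5443 none in GEO's platform annotation. For the 999 of 19938 genes with more than 1 probe set, the brightest on average was kept.

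A mean per group was fitted to all 10 arrays with limma 3.58.1 in R 4.3.3 (lmFit, then eBayes with the variance prior following the mean; 6 residual degrees of freedom), two-sided, with Benjamini-Hochberg adjustment over all genes and a threshold of 0.05. The untreated arrays thus add to the estimate of the spread. On simulated data with known changes, the procedure recovered 69% of genes changed by 1 log2 unit and 98% of those changed by 2. Of its calls there, 6.7% were unchanged genes. Named were the 12 largest rises and falls whose groups did not overlap (predicted genes, small RNAs, receptor segments, histones and sex-linked genes left out), the interaction genes, up to 4 members of smallest p in each of 38 lists, and 22 chosen genes; members of counts of 5 or fewer and a few others were named after their values were seen. The groups, lists and members were chosen with earlier results of these data known. Replicate numbers were not used to pair the arrays. Same-numbered WT SRBC and Notch2-11cKO SRBC arrays deviated together with r = 0.38, -0.17 and 0.32, and differently numbered ones with r from -0.44 to 0.32. With 3 arrays per group these values cannot decide whether same-numbered arrays belong together. Alternatives were 22 settings: probe set choice, a filter on dim genes, scaling, the variance model, array weights, the arrays fitted, a replicate block, arrays left out and a 2-fold minimum. Figures were drawn with matplotlib 3.10.9 from tables made with pandas 2.3.3.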

Additional observations from a re-analysis of the deposited data

Results flagged for a closer look

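The interaction test, of whether the genotype difference after SRBC differed from that in untreated mice, singled out 4 genes (limma, n = 3 and 3 arrays after SRBC and 2 and 2 untreated). Car2, carbonic anhydrase 2, had an interaction of -2.26 on the log2 scale: the genotypes differed by -2.85 after SRBC and -0.59 untreated. Cd63, a tetraspanin, had an interaction of -2.03, with differences of 0.48 and 2.51. Hes1, a Notch target, had an interaction of 2.51, with differences of -0.09 and -2.60. Rnase2a, a ribonuclease, had an interaction of 1.53, with differences of 1.62 and 0.09, and was too dim to be tested among genes above the median level. All 4 calls were lost without the array WT Untreated 1, and all 4 held without both arrays that stood apart from their groups. The call of Hes1 was also lost without most other single arrays, with all probe sets by ID, among genes above the median level, after quantile normalization and with the replicate block (adjusted p = 0.0926, 0.0505, 0.0641 and 0.0745 for the last 4).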

How the results depend on the processing

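Without both WT SRBC 1 and Notch2-11cKO SRBC 3, an alternative chosen with earlier results of these data known, limma called 2364 genes after SRBC against 1061, 1996 untreated against 1019, and 604 in the interaction against 4. Array weights gave 1615, 1822 and 63. The 6 SRBC arrays alone gave 627 calls after SRBC, of which 617 were among the 1061, and a 2-fold minimum 578. The interaction count was 2 among genes above the median level and 7 without a mean-variance trend. Leaving out 1 array gave 649 to 1256 calls after SRBC (lowest without Notch2-11cKO SRBC 1), 418 to 1390 untreated (lowest without WT Untreated 1) and 0 to 44 in the interaction (0 without WT Untreated 1, 44 without WT SRBC 1). With a replicate block the counts were 1319, 1175 and 6, and whether same-numbered arrays belong together is not settled. The other settings kept each count within 1.5 times. Of 120 calls after SRBC named by the stated rules, 35 were lost without at least 1 array. The other 85 held under every alternative that tested them but the 2-fold minimum, and none reversed. Only 111 of the 120 were bright enough to be tested among genes above the median level. Genes named only after their values were seen are not among the 120. Several of their calls, such as those of Ikzf1 and Cd274, were also lost when single arrays were left out. Probe signal against background was not analysed here, so the reliability of dim genes is unknown.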
